A study of Mus musculus with 2 samples.

Results

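The 40 genes described here encode the actin cytoskeleton of phagocytes. They were chosen by name: 2 actins, 7 subunits of the Arp2/3 complex, 5 nucleation-promoting or elongation proteins (WASP, WAVE complex, Ena/VASP), 8 proteins of monomer binding and filament turnover, 5 capping and severing proteins, 6 myosin chains, and 7 crosslinkers, scaffolds or membrane and adhesion linkers. They are 40 of the 31053 genes listed. The study captured macrophages and microglia, the resident and recruited phagocytes of the optic nerve, from wildtype 129S1/SvlmJ mice of both sexes with a droplet method that counts the 3′ ends of mRNA molecules. One library came from nerves taken 2 weeks after a crush of the optic nerve that was made at 8 weeks of age, and the other came from nerves of mice aged 10 weeks with no injury and no treatment. The sources used here do not give the number of animals per library.

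With 1 library per group there is no replicate, so no test between the conditions was possible. Each library was summed over its cells as CPM, the UMIs (counted molecules) of a gene scaled to a common library total. Ratios carry exact conditional binomial intervals at 95% and levels exact Poisson intervals, which cover counting error only and not the spread between animals or cells. A gene is called higher or lower here past 1.5-fold after 10 CPM is added to both levels, a rule of size and not a test. Counts of 3′ ends are not a measure per transcript length, so levels are compared between libraries and cells and not between genes. Summed levels also cannot tell fewer expressing cells from less RNA per cell.

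Actin monomers assemble into filaments that push the membrane forward during migration and around a particle during phagocytosis. The Arp2/3 complex starts branches on existing filaments when WASP or WAVE proteins switch it on, while profilin, cofilin, thymosins and coronins control the pool of monomers and the breakdown of old filaments. Capping proteins end growth, myosins pull, and talin, vinculin and filamin tie filaments to integrins, the receptors that bind fibronectin and other matrix proteins.

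The injured library held 727 cells and 3697992 UMIs, with a median of 1123 UMIs per cell and a range of 500 to 53972. The uninjured library held 51 cells and 87499 UMIs, with a median of 888 and a range of 458 to 11100. No cell barcode occurred in both. All 11 phagocyte markers examined (C1qa, C1qb, C1qc, Csf1r, Tyrobp, Fcer1g, Ctss, Cd68, Ptprc, Cx3cr1, Laptm5) were detected in both libraries, and together they reached 38376 CPM after injury and 24732 CPM without it. Of these markers Csf1r (823 and 1771 CPM), Ptprc (250 and 526 CPM) and Cx3cr1 (588 and 823 CPM) were lower after injury and the others higher. Markers of other cells moved with the condition as well. The 8 oligodendrocyte markers, all detected in both, summed to 1185 CPM after injury and 8617 CPM without it, ranging per cell from 0 to 98224 CPM and from 627 to 55227 CPM. The 6 astrocyte markers summed to 173 and 1074 CPM, but most of both sums came from Slc1a3. It had 506 of the 639 injured and 87 of the 94 uninjured UMIs. Aqp4, Slc1a2 and Aldoc had 12, 22 and 5 injured UMIs (3.2, 5.9 and 1.4 CPM) and 0 in the uninjured library. These levels are under the 34.3 CPM of 3 counts in the uninjured library, so their direction is not known. Mural and smooth muscle markers, whose cells are rich in contractile actin, summed to 2.16 CPM in the injured library with Myh11, Rgs5 and Cnn1 at 0, and all 6 were at 0 in the uninjured library. The 6 fibroblast markers summed to 24.9 and 57.1 CPM, with Col1a1 and Lum at 0 in the uninjured library. One uninjured cell stood apart: haemoglobin genes took 10194 of its 11100 UMIs, only 3 of the 40 genes were seen in it, and its Actb count was 0. It adds to the total by which every uninjured level is divided, so results between the libraries are also given without it. The part of oligodendrocyte and astrocyte RNA in those results was not tested.

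The 40 genes held 132595 of the injured UMIs (3.59%) and 2272 of the uninjured UMIs (2.60%). Thymosin beta 4, encoded by Tmsb4x, supplied 47.6% of these UMIs in the injured and 46.5% in the uninjured library, and Actb supplied 15.8% and 19.1%. Of the 40, 39 could be compared, having a UMI in no fewer than 10% of the injured or of the uninjured cells. Among the 39, 9 reached that share in the injured library alone, so an injured level above the uninjured one was partly built into their passing. These 9 were Was, Wdr1, Vasp, Capg, Gsn, Myo1e, Flna, Iqgap1 and Ezr. Vcl, which encodes vinculin, had 27 injured UMIs and 1 uninjured UMI and was not compared.

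Injured phagocytes had higher levels of 17 of the 39 compared genes and lower levels of 2, Vasp and Capza1, and 20 lay between. Over all 4021 genes compared, 32.8% were higher and 21.8% lower. Of the 17, 6 (Wdr1, Capg, Gsn, Myo1e, Flna and Iqgap1) had passed through the injured library alone. The 30 members that reached the share in both libraries gave 11 higher (36.7%) and 1 lower, while 18 were neither. Their median log2 ratio was 0.40, and the share called higher is near the 32.8% of all compared genes. The median log2 ratio of the 39 genes was 0.49, against 0.17 for all compared genes. The intervals of 17 members lay wholly above 1 and that of 1 member below it, and 14 of the 17 genes called higher were among the former. After the ratios were centred on the median of all compared genes the split was 12 higher and 4 lower. With mitochondrial, ribosomal and haemoglobin genes out of the totals it was 11 higher and 5 lower. No share over all compared genes is given beside these 2 splits, so they are not read as a result about the members. Without the haemoglobin-rich cell the split was 12 higher and 4 lower, beside 28.2% and 26.8% of all compared genes. The 4 lower genes were Vasp, Capza1, Nckap1l and Lcp1. Intervals of 12 members then lay above 1 and those of 3 (Capza1, Capza2 and Lcp1) below it. The medians were then 0.31 for the members and 0.02 for all compared genes.

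**Figure D1:**
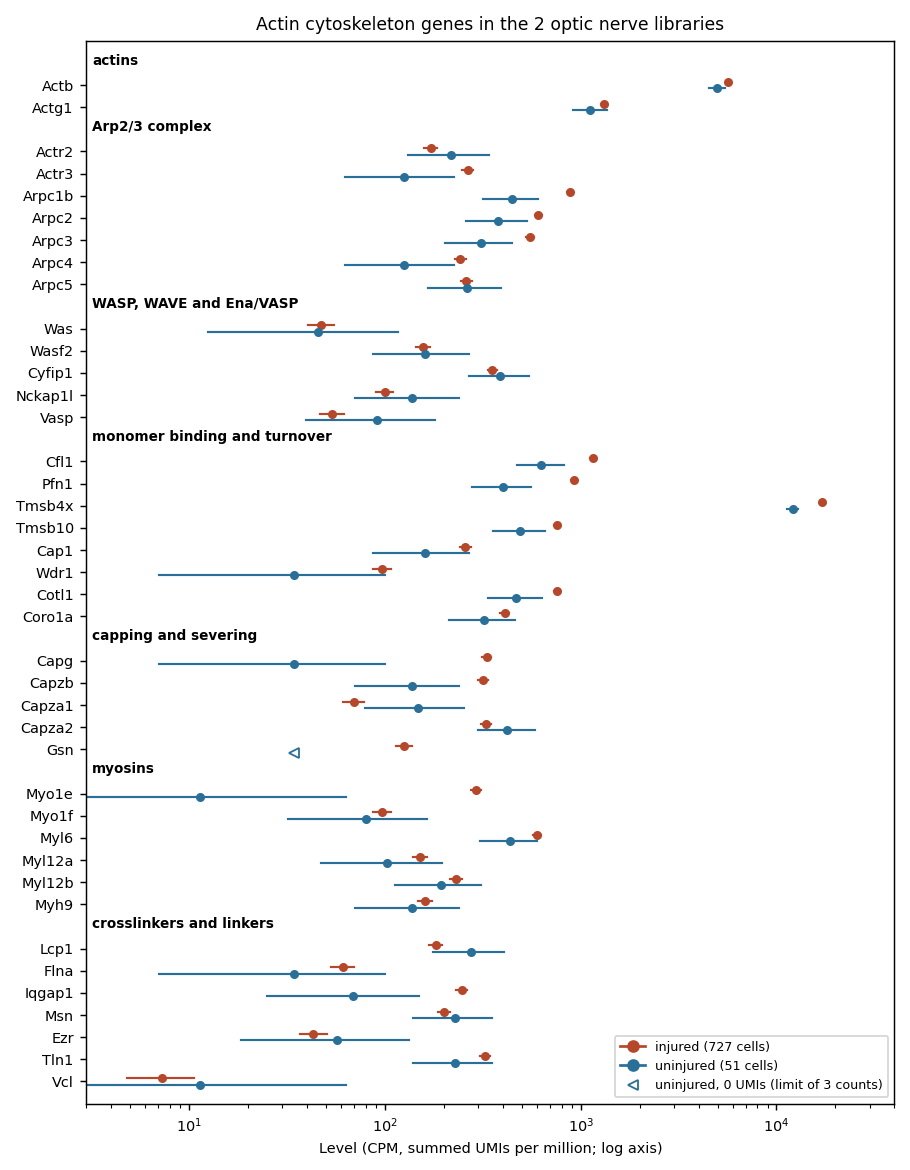
Summed level of each of the 40 genes (CPM, log axis) in the injured library (red, 727 cells) and the uninjured library (blue, 51 cells), in order of role; lines are exact 95% Poisson intervals and the open triangle is the limit that 0 UMIs allow. Capg, Gsn, Myo1e and Iqgap1 stand well to the right in the injured library, while Actb and Actg1 nearly coincide. Capg, Gsn, Myo1e and Iqgap1 reached the minimum share of cells in the injured library alone, which in part fixed their direction.

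The 2 cytoplasmic actins, the filament subunits themselves, were close to equal in the summed libraries, but for Actg1 this rests on 1 uninjured cell. Actb, encoding beta-actin (chr5:142903115-142906754, minus strand, mm10), had 20965 injured and 435 uninjured UMIs, or 5669 and 4971 CPM, a ratio of 1.14 (1.04 to 1.26). Without the haemoglobin-rich cell the uninjured level was 5694 CPM and the ratio 0.996. Actg1, encoding gamma-actin, had 4843 and 98 UMIs, or 1310 and 1120.0 CPM, a ratio of 1.17 (0.957 to 1.44). Neither actin passed the rule of size, and the interval of Actg1 included 1. Without the deepest uninjured cell that is not rich in haemoglobin, the log2 ratio of Actg1 was 0.83 in place of 0.22, past the rule of size, and it was 0.84 with equal weight per cell and 0.81 in cells under 5000 UMIs. The counts of Actg1 are uncertain, since 49.9% of the 50-base stretches in the last 500 bases of its transcripts also occur in other genes.

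Of the 7 Arp2/3 subunits 5 were higher in the injured library and 2 lay between, with a median log2 ratio of 0.82. Arpc1b, the scaffold subunit that blood cells use, had 3263 and 39 UMIs, or 882 and 446 CPM, a ratio of 1.98 (1.44 to 2.79). Arpc2, part of the structural core, stood at 607 and 377 CPM, a ratio of 1.61 (1.14 to 2.34) that became 1.40 without the haemoglobin-rich cell and was then not called. Arpc3 stood at 551 and 309 CPM, a ratio of 1.79 (1.22 to 2.72). Actr3, one of the pair of actin-related subunits that form the base of the new filament, had 983 and 11 UMIs, or 266 and 126 CPM, a ratio of 2.11 (1.18 to 4.25). Of the 50-base stretches at the 3′ ends of Actr3 transcripts, 47.0% also occur in other genes, so its counts are uncertain. Its partner Actr2 went the other way, with 172 and 217 CPM and a ratio of 0.791 (0.502 to 1.32), an interval that includes 1. The remaining subunits were Arpc4 with a ratio of 1.94 (1.08 to 3.89) and Arpc5 with 0.991 (0.656 to 1.57).

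Of the 5 WASP, WAVE and Ena/VASP genes none was called higher and 1 was called lower, and the median log2 ratio was -0.13. Cyfip1, a core subunit of the WAVE complex, stood at 354 CPM after injury and 389 CPM without it, a ratio of 0.911 (0.649 to 1.32). Wasf2, the WAVE protein itself, stood at 157 and 160.0 CPM (0.979, 0.578 to 1.80), and Was, the haematopoietic WASP, at 47.3 and 45.7 CPM (1.04, 0.397 to 3.84). Nckap1l, the WAVE complex subunit of blood cells, stood at 100.1 and 137 CPM, a ratio of 0.730 (0.413 to 1.42). Vasp, which speeds filament elongation, stood at 54.1 and 91.4 CPM from 200 and 8 UMIs and was called lower at 0.592, but its interval of 0.294 to 1.39 included 1. All 5 intervals in this group included 1. Nckap1l was also called lower once the haemoglobin-rich cell was left out.

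Among the 8 proteins of monomer binding and turnover 6 were higher, none was lower and the median log2 ratio was 0.67. Profilin 1 (Pfn1), which loads monomers with ATP and delivers them to growing ends, had 3415 and 35 UMIs, or 923 and 400.0 CPM, a ratio of 2.31 (1.66 to 3.32). Cofilin 1 (Cfl1), which severs aged filaments, had 4275 and 55 UMIs, or 1156 and 629 CPM, a ratio of 1.84 (1.41 to 2.45). Wdr1, a helper of cofilin, stood at 97.1 and 34.3 CPM, but only 3 uninjured UMIs lay behind a ratio of 2.83 (0.961 to 13.8). Tmsb4x (chrX:167207093-167209315, minus strand), which sequesters monomers, had 63051 and 1057 UMIs, or 17050.1 and 12080.1 CPM. Its ratio of 1.41 (1.33 to 1.5) did not pass the rule of size, and without the haemoglobin-rich cell it was 1.23. The other thymosin, Tmsb10, had a ratio of 1.55 (1.15 to 2.14). Its counts are uncertain, since 39.3% of the 50-base stretches at its 3′ ends also occur in other genes. Cap1 had a ratio of 1.61 (0.955 to 2.96) and Cotl1 of 1.61 (1.19 to 2.25), and Tmsb10, Cap1 and Cotl1 fell under the rule of size without that cell. With equal weight per cell the log2 ratio of Tmsb10 was 0.08 in place of 0.62. Coro1a, the coronin of leukocytes, stood at 410 and 320.0 CPM, the lowest ratio of the group at 1.28 (0.882 to 1.93).

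Among the 5 capping and severing proteins 3 were higher, 1 was lower and 1 lay between. Capg, a gelsolin relative that caps filaments in macrophages (chr6:72544391-72562983, plus strand), had 1226 injured and 3 uninjured UMIs, or 332 and 34.3 CPM, a ratio of 9.67 (3.30 to 47.0). Gelsolin itself, Gsn (chr2:35256380-35307892, plus strand), which severs and caps filaments in response to calcium, had 466 injured UMIs (126 CPM) and 0 uninjured UMIs. Against 3 counts in the whole uninjured library, a level of 34.3 CPM, Gsn was at least 3.68-fold higher. The lower end of its exact interval was 2.98. Capzb, the beta subunit of the heterodimeric capping protein, stood at 319 and 137 CPM with a ratio of 2.32 (1.33 to 4.51). The alpha subunit Capza1 stood at 69.8 and 149 CPM and was 2.13-fold lower (1.12 to 3.71). Capza1 had 258 injured and 13 uninjured UMIs, and 62.9% of the 50-base stretches at its 3′ ends also occur in other genes, so its counts are uncertain. Capza2, the other alpha subunit, stood at 328 and 423 CPM, a ratio of 0.776 (0.560 to 1.11) whose interval includes 1. Once the haemoglobin-rich cell was left out, the interval of Capza2 lay below 1, but it was not called. In cells of at least 5000 UMIs Capza2 was called higher at 1.60 (0.775 to 4.00). In the Malat1-rich cells described later it was 2.42-fold lower (1.18 to 4.65). The alpha subunits thus gave no common direction.

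Of the 6 myosin chains 1 was higher and 5 lay between. Myo1e (chr9:70207350-70399766, plus strand) encodes a long-tailed class I myosin that links membrane to branched actin at phagocytic cups. It had 1080 injured UMIs (292 CPM), and the uninjured library had 1 UMI (11.4 CPM), a ratio of 25.6 with an interval of 4.58 to 1010.3. In the injured library 274 cells (37.7%, exact Clopper-Pearson interval 34.2% to 41.3%) had a Myo1e UMI, and the 2 cells with most of it held 59 UMIs. Of the 51 uninjured cells 1 had it (1.96%, 0.0496% to 10.4%). Myosin light chain 6 (Myl6) stood at 600 and 434 CPM with a ratio of 1.38 (1.00 to 1.96), Myl12b at 231 and 194 CPM (1.19, 0.738 to 2.05) and Myh9, the heavy chain of non-muscle myosin II, at 160 and 137 CPM (1.17, 0.663 to 2.27). The related class I myosin Myo1f had a ratio of 1.21 (0.581 to 3.03) and Myl12a 1.48 (0.774 to 3.25); Myl12a and Myl12b share part of their 3′ sequence. None of the other 5 chains passed the rule of size; whether Myo1e differs from them was not tested.

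Crosslinkers and linkers held 2 genes called higher, none lower and 4 between among 6 compared. Iqgap1, a scaffold that joins Rac1 and Cdc42 to filaments (chr7:80711583-80825974, minus strand), had 915 and 6 UMIs, or 247 and 68.6 CPM, a ratio of 3.61 (1.65 to 9.86). Flna, encoding filamin A, had a ratio of 1.78 (0.602 to 8.71) from 226 and 3 UMIs and was not called without the haemoglobin-rich cell. Talin 1 (Tln1), which activates integrins, stood at 326 and 229 CPM (1.43, 0.919 to 2.34), and moesin (Msn), a membrane linker, at 201 and 229 CPM (0.879, 0.565 to 1.45). L-plastin (Lcp1), a leukocyte bundler, had the lowest ratio of the group at 0.663 (0.441 to 1.04), with 182 and 274 CPM. Once the haemoglobin-rich cell was left out, Lcp1 was called lower and its interval lay below 1. In cells under 5000 UMIs the log2 ratio of Lcp1 was -1.30 in place of -0.57, and that of Msn -0.99 in place of -0.18. Ezr had a ratio of 0.757 (0.318 to 2.36).

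Because injured cells were deeper, each cell was also thinned to 500 UMIs, which left 727 injured and 49 uninjured cells. On these 17 members were higher and 8 lower, beside 37.7% and 27.2% of all compared genes. UMIs per thinned cell were 1.88 times as high in injured cells for Cfl1 (1.16 to 3.25), 1.85 for Pfn1 (1.07 to 3.51) and 2.5 for Arpc1b (1.34 to 5.26). Actg1 reached 2.54 (1.47 to 4.81), above its ratio of summed levels. Thinned ratios went under those of the summed libraries for Capzb (1.11, 0.520 to 2.82), Wasf2 (0.522, 0.249 to 1.26), Myo1f (0.303, 0.123 to 0.898) and Lcp1 (0.283, 0.140 to 0.633). Capg had 120 and 2 UMIs (4.04, 1.10 to 33.8), Myo1e 124 and 0, and Gsn 49 and 0. After thinning 14.7% of injured cells had a Myo1e UMI, 14.6% a Capg UMI and 6.05% a Gsn UMI, and before thinning 37.7%, 38.8% and 24.8%. The uninjured shares after thinning were 0% of 49 cells for Myo1e and Gsn, each with an upper limit of 7.25%, and 4.08% (0.5% to 14%) for Capg. The share for Gsn in injured cells is under the limit for uninjured cells, so at this depth a difference in the share of cells with Gsn was not detectable. The share that free RNA gives was not measured with a cell type that lacks these genes. Of the 5 red cell markers, which came almost wholly from the haemoglobin-rich cell, the Malat1-rich and Malat1-poor uninjured cells described later held 1 and 2 UMIs.

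A regulatory sequence tied to actin genes was then looked for at the start sites, a choice made after the levels were known. Serum response factor, a transcription factor that responds to the pool of free actin monomers, binds a stretch of 10 bases named the CArG box, a pattern that is the same on both strands. RefSeq promoters on GRCm38.p6, from 250 bases before to 50 after each start, were found for 36 of the 40 genes. Actb, Cyfip1, Nckap1l and Cotl1 had no entry and were not searched. A CArG box lay in 5 of the 36 (13.9%), against 1.81% of 27025 genes with an entry and 1.59% of 3202 compared genes. The 5 stretches follow, 5′ to 3′ on the strand of the gene, with the box in capitals.
Actg1, box starting 90 bases before the start: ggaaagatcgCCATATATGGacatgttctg
Arpc4, box starting 250 bases before the start: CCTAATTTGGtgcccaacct
Myo1e, box starting 32 bases before the start: gctgaattctCCATTTATGGacagattgcc
Myl6, box starting 50 bases before the start: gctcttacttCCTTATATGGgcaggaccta
Vcl, box starting 227 bases before the start: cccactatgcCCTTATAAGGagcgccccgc
Of these 5 genes Myo1e and Arpc4 were higher in the injured library, Actg1 and Myl6 lay between, and Vcl was not compared. A match is a stretch of letters and shows no binding. The whole windows of Myo1e and of the actin Actg1 are given for comparison, the first at chr9:70207100-70207399 (plus strand) and the second at chr11:120348446-120348745 (minus strand).
Myo1e: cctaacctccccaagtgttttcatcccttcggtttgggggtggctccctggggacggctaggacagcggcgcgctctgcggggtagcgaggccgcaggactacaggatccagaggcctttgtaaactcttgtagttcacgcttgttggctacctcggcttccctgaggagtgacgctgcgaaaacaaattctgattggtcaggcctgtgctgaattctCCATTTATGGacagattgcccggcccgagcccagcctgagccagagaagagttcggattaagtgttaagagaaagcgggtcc
Actg1: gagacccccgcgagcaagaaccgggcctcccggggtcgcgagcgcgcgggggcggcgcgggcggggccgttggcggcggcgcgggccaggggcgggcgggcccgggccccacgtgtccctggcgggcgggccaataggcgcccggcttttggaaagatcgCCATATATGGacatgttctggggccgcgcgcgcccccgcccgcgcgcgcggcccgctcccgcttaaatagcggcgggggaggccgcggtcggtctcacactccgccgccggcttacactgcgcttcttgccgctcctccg

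The cells of both libraries were put into 3 classes. Deep cells have at least 5000 UMIs. Shallower cells were divided by Malat1, a long noncoding RNA kept in the nucleus, at 1% of the UMIs of a cell: those at or above it are called Malat1-rich and those below it Malat1-poor. The injured library had 144 deep, 91 Malat1-rich and 492 Malat1-poor cells, and the uninjured library 4, 17 and 30. Malat1 is a continuous measure, and 173 injured cells and 1 uninjured cell lay between 0.5% and 2%, of them 114 deep.

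In the injured library the summed share of UMIs from the 40 genes was 3.41% for deep cells, 1.47% for Malat1-rich cells and 5.16% for Malat1-poor cells. In the uninjured library it was 2.17%, 1.41% and 4.36%. The median share per cell followed the same order, with 3.01%, 1.10% and 4.70% in injured and 2.89%, 1.01% and 4.24% in uninjured cells. Malat1-poor injured cells reached from 0.127% to 16.4%, so single cells of 1 class overlapped those of every other. Tmsb4x and Actb make up much of these shares. Without them the medians were 1.16%, 0.804% and 1.45% in injured and 0.905%, 0.656% and 1.18% in uninjured cells.

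**Figure D2:**
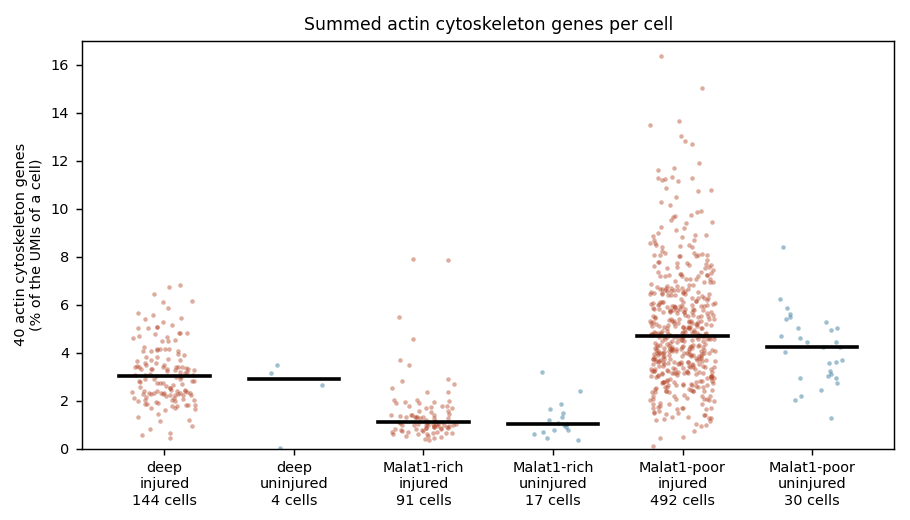
Share of a cell's UMIs (%) that came from the 40 actin cytoskeleton genes, 1 point per cell, by class and library; bars are medians. Malat1-rich cells sit lowest in both libraries, with medians of 1.10% and 1.01%, and the haemoglobin-rich cell is the lowest of the 4 deep uninjured points.

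Within deep cells the injured library had 23 of 39 genes higher and 3 (Vasp, Capza1 and Ezr) lower, beside 49.8% and 15% of all compared genes. The medians were 0.69 for the members and 0.58 for all compared genes. Without the haemoglobin-rich cell, which leaves 3 deep uninjured cells, 12 were higher and 4 lower, beside 40.4% and 25.1%, and the medians were 0.21 and 0.17. Only 11 intervals lay above 1 with that cell and 5 without it. Pfn1 had a ratio of 3.34 (1.82 to 6.98) with the cell and 2.31 (1.25 to 4.83) without it. Actg1, at 0.770 (0.599 to 1.01) with the cell, was 1.88-fold lower (1.44 to 2.41) without it.

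Within Malat1-rich cells 14 genes were higher and 9 lower, beside 36.4% and 30.7% of all compared genes. The median was 0.27, or 0.08 with the 6 genes that had 0 uninjured UMIs set at their bounds, against 0.02 for all. The intervals of 5 members lay above 1 and those of 5 below it. Wdr1, Gsn, Myl12a and Ezr were among the 14 but had 0 uninjured UMIs and 10 to 19 injured UMIs, levels that do not exceed the limit of 3 counts. All 5 WASP, WAVE and Ena/VASP genes were among the 9 called lower, of which Wasf2 was 2.48-fold lower (1.02 to 5.49) and the other 4 had intervals that included 1. Lcp1 was 2.92-fold lower (1.55 to 5.28). Iqgap1 had 114 injured UMIs and 1 uninjured UMI, or 647 and 39 CPM, a ratio of 16.6 (2.91 to 660.1).

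Within Malat1-poor cells 12 genes were higher and 2 (Msn and Ezr) lower, beside 47.8% and 19.8%, and the median of 0.27 was below the 0.49 of all compared genes. Actb was equal at 7402 and 7245 CPM, a ratio of 1.02 (0.883 to 1.19). Arpc1b had a ratio of 2.45 (1.42 to 4.62), Cfl1 1.84 (1.21 to 2.96) and Cotl1 1.84 (1.13 to 3.24). Larger changes rested on few uninjured UMIs: Actr3 had a ratio of 7.89 (1.40 to 314) from 1 uninjured UMI. Flna had 21 injured and 0 uninjured UMIs, a level that does not exceed the limit of 3 counts. Iqgap1, at a ratio of 16.6 in Malat1-rich cells, stood at 70.3 and 77.1 CPM here, a ratio of 0.912 (0.237 to 7.79).

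Myo1e, Gsn and Capg all passed through the injured library alone, which in part fixed their direction, and the call was higher for them in each class. The single uninjured Myo1e UMI came from a deep cell, and the ratio there was 10.2 (1.83 to 403), or 7.05 without the haemoglobin-rich cell. In Malat1-rich and Malat1-poor cells, with 0 uninjured UMIs, Myo1e was at least 2.86-fold and at least 2.78-fold higher. Gsn had 0 uninjured UMIs in every class and was at least 1.46-fold higher in deep and at least 1.32-fold higher in Malat1-poor cells; in Malat1-rich cells 19 injured UMIs were too few to exceed the limit. Capg was at least 3.89-fold higher in deep cells, 2.69 without the haemoglobin-rich cell, at least 1.36-fold higher in Malat1-rich cells and 3.63-fold higher (1.23 to 17.7) in Malat1-poor cells.

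**Figure D3:**
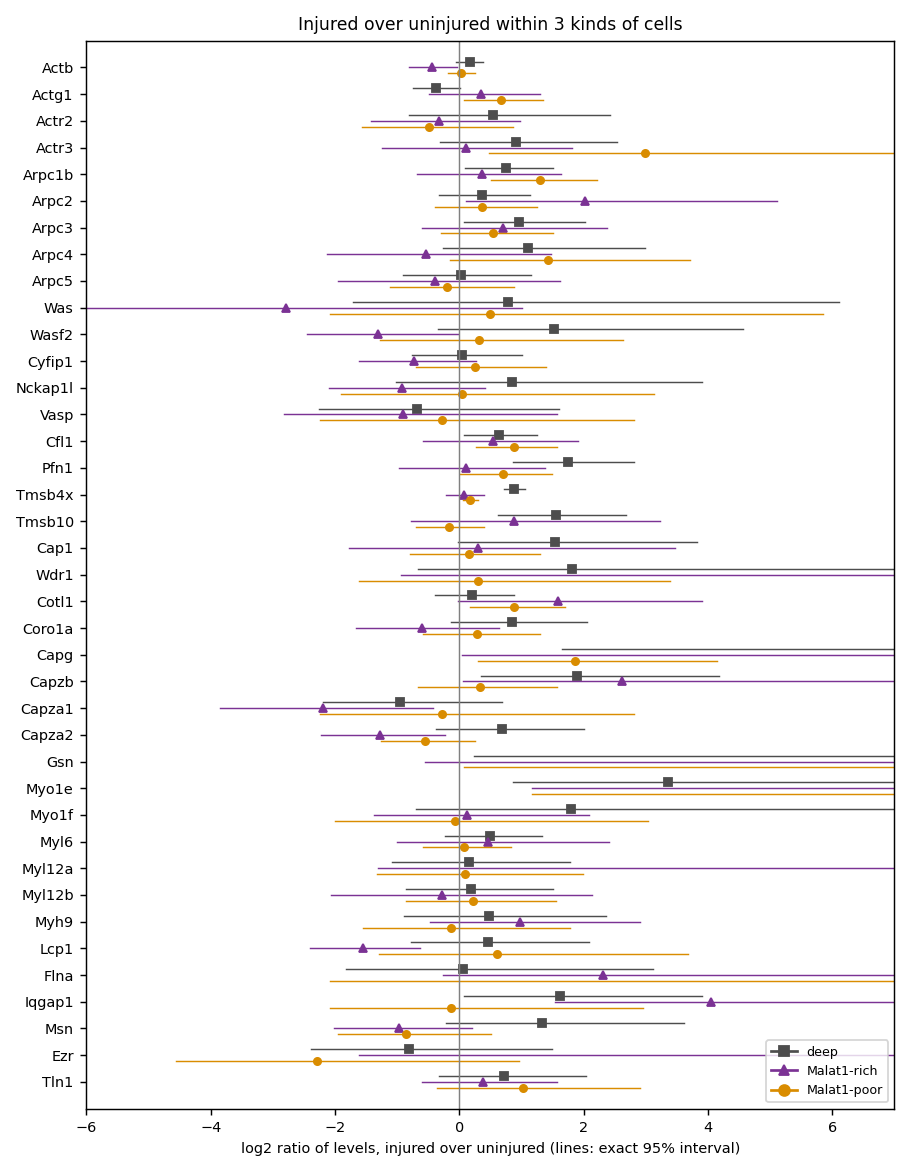
Log2 ratio of the level in injured over uninjured cells for each of the 39 compared genes within deep (grey squares), Malat1-rich (purple triangles) and Malat1-poor (orange circles) cells, with exact 95% intervals that run off the axis where uninjured UMIs are few; a line without a marker is a gene with 0 uninjured UMIs in that class. Myo1e, which reached the minimum share of cells in the injured library alone, lies right of 0 in all 3 classes. Most other intervals cross 0.

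The shallow classes of the injured library were compared with each other. Malat1-rich cells had 7 of 39 genes higher and 21 lower than Malat1-poor cells, beside 38.3% and 36% of all compared genes, and the medians were -1.05 and 0.02. Tmsb4x stood at 4176 CPM in Malat1-rich and 28452 CPM in Malat1-poor cells, 6.81-fold lower (6.33 to 7.34). Tmsb10 was 4.92-fold lower (3.55 to 7.03), Cfl1 3.93-fold (3.08 to 5.09) and Actb, with 1992 and 7402 CPM, 3.72-fold (3.33 to 4.16). The 7 higher genes were Iqgap1, Flna, Ezr, Myo1f, Myh9, Nckap1l and Lcp1. Iqgap1 stood at 647 and 70.3 CPM, 9.20-fold higher (6.36 to 13.5), and Flna at 193 and 36.9 CPM, 5.23-fold higher (2.95 to 9.47). At least 2 of 6 T cell genes were seen in 5 injured cells and 0 uninjured cells. Without such cells, an alternative chosen after seeing the data, the counts were again 7 higher and 21 lower. Lcp1, a leukocyte gene, then had a ratio of 1.83 (1.19 to 2.77) in place of 1.93, Nckap1l 2.13 (1.29 to 3.48) in place of 2.08 and Myo1f 2.29 (1.37 to 3.76) in place of 2.31.

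By role, 7 of 8 genes of monomer binding and turnover, 5 of 7 Arp2/3 subunits and both actins were lower in Malat1-rich injured cells. Of the 6 crosslinkers and linkers 4 were higher and none was lower. Over all compared genes 38.3% were higher and 36% lower. The roles also differ in gene length, described below, and the part of length in this contrast was not tested. Myo1e was equal in both, at 335 and 322 CPM (1.04, 0.762 to 1.40). The 17 and 30 uninjured cells gave 9 genes higher and 20 lower, beside 44.8% and 29.7%, with Tmsb4x 6.37-fold lower (5.16 to 7.94). Among deep injured cells the same division of 61 against 83 cells gave 3 genes higher, Ezr (1.86, 1.32 to 2.62), Vasp (1.71, 1.23 to 2.38) and Iqgap1 (1.64, 1.42 to 1.90), and none lower, beside 3.83% and 2.84%. There Tmsb4x differed by 1.40-fold.

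These differences varied with gene length. Across the 39 genes the log2 ratio of Malat1-rich over Malat1-poor injured cells had a Spearman rho of 0.77 with the span of the gene on the genome and 0.73 with its longest transcript, against 0.54 and 0.65 across 3996 compared genes. These are descriptions across genes, which share the same cells and are not independent. The 16 members under 20 kb had a median log2 ratio of -1.59, the 12 of 20 to 50 kb -0.39 and the 11 of 50 kb or more 0.35. All compared genes of the same spans had -0.79, 0.18 and 1.40, so the members lay lower than other genes in each range of span. In uninjured cells the rho was 0.39 with span and 0.62 with the longest transcript, against 0.38 and 0.46 over all compared genes. Mitochondrial genes took a median of 10.7% of UMIs in Malat1-rich and 0.503% in Malat1-poor injured cells, against 3.11% and 8.11% in the uninjured classes. The phagocyte markers summed to 14617 CPM in Malat1-rich and 38052 CPM in Malat1-poor injured cells, and oligodendrocyte markers to 2729 and 5183 CPM. In the same order astrocyte markers summed to 494 and 209 CPM, with Aqp4, Aldoc and Gja1 at 0 in Malat1-rich cells. The 6 T cell markers summed to 210.0 and 1.76 CPM. Neutrophil markers summed to 79.4 and 17.6 CPM, with Ly6g and Retnlg at 0 in both. The part of mitochondrial, oligodendrocyte, astrocyte and neutrophil RNA in the differences was not tested. Between the libraries the ratios had a rho with span of -0.05.

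**Figure D4:**
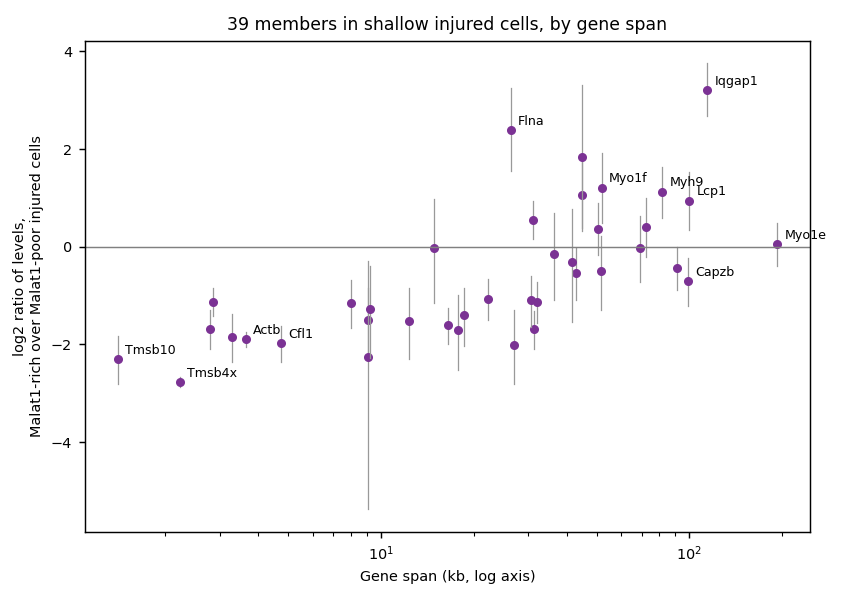
Log2 ratio of the level in Malat1-rich over Malat1-poor injured cells against the span of the gene on the genome (kb, log axis) for the 39 compared genes; lines are exact 95% intervals. The short genes Tmsb10, Tmsb4x, Actb and Cfl1 lie far below 0, and Iqgap1 and Flna lie highest.

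Deep cells were compared with each shallow class. Deep injured cells had 3 genes higher than Malat1-poor injured cells, Iqgap1 (3.66, 2.67 to 5.17), Ezr (3.02, 1.55 to 6.74) and Lcp1 (1.62, 1.26 to 2.13). They had 3 lower: Tmsb4x by 1.82-fold (1.79 to 1.85), Cotl1 by 1.61-fold (1.47 to 1.76) and Cap1 by 1.60-fold (1.37 to 1.86). The shares over all compared genes were 19.2% and 5.92%, and the medians -0.23 and 0.03. Myo1e (284 and 322 CPM), Gsn (122 and 153 CPM) and Capg (325 and 420 CPM) lay between, and none of the 3 passed the rule of size between these classes. Deep against Malat1-rich injured cells gave 19 higher and 6 lower, beside 33.3% and 34.6%, with Tmsb4x 3.74-fold higher (3.48 to 4.03). In the uninjured library, deep against Malat1-poor cells gave 6 higher and 16 lower, beside 30.6% and 34.2%.

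The study concerns fibronectin, so the members were set beside Fn1, which encodes it, and Itgb1, the beta 1 integrin chain of its main receptor. Fn1 stood at 1114 CPM after injury and 149 CPM without it (7.5, 4.38 to 14.1) and Itgb1 at 344 and 91.4 CPM (3.76, 1.90 to 8.73). Over the 144 deep injured cells, each thinned to 5000 UMIs, 114 cells had a Fn1 UMI (median 3, highest 44) and 119 had an Itgb1 UMI (median 2, highest 10). The 39 genes had a median Spearman rho of -0.00 with Fn1, from -0.22 to 0.32, and 19 were above 0. All compared genes had a median of -0.00, a 5th percentile of -0.17 and a 95th percentile of 0.19. Myo1e had the highest rho with Fn1, 0.32, from 185 UMIs after thinning, followed by Cyfip1 at 0.19, Tmsb4x at 0.17, Capza1 at 0.16 and Cotl1 at 0.14. The lowest were Iqgap1 at -0.22, Myl12a at -0.21 and Vasp at -0.15. These are correlations across cells of 1 library with few UMIs per gene and are given as descriptions. Over all compared genes 4.16% reached 0.2, and of the members only Myo1e did. At -0.2 or below were 3.06% of all compared genes and 2 members, Iqgap1 and Myl12a.

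With Itgb1 the median rho was 0.03, from -0.12 to 0.17, and 27 of 39 were above 0, against 51.2% of all compared genes. The highest were Capza1 at 0.17, Tmsb4x, Myo1e and Tmsb10 at 0.14 and Tln1, which binds the tail of this integrin chain, at 0.13. The lowest were Arpc4 at -0.12 and Wdr1 and Arpc2 at -0.11. No member reached 0.2 in either direction.

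**Figure D5:**
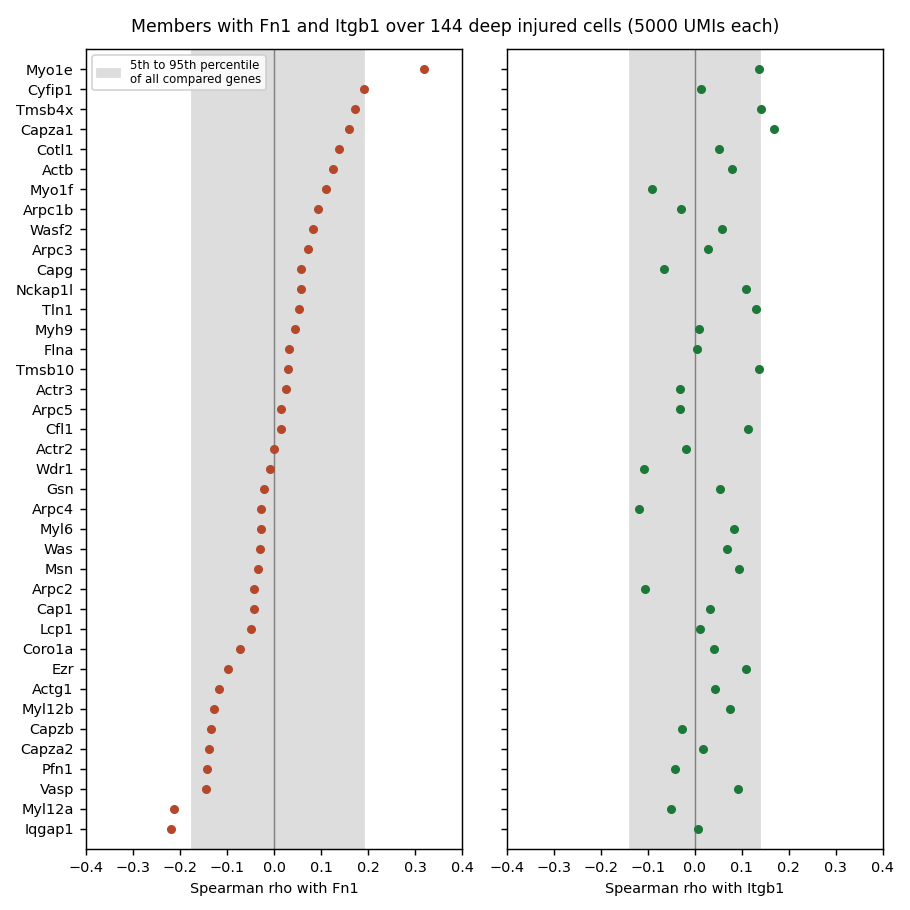
Spearman rho of each of the 39 compared genes with Fn1 (left) and Itgb1 (right) over 144 deep injured cells thinned to 5000 UMIs each; the grey band holds all compared genes from the 5th to the 95th percentile. Myo1e at 0.32 lies above the band for Fn1 and Iqgap1 and Myl12a lie below it. Capza1 and Tmsb4x lie just above the band for Itgb1. Most members lie inside the band for both genes.

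Dividing the deep injured cells at the median Fn1 share of UMIs into 72 and 72 cells gave 4 genes higher in the Fn1-high cells and none lower, beside 5.12% and 2.24% of all compared genes. They were Cyfip1 (421 and 258 CPM, 1.63, 1.43 to 1.86), Flna (1.63, 1.18 to 2.28), Myo1e (343 and 215 CPM, 1.60, 1.38 to 1.85) and Tmsb4x (18547 and 12218 CPM, 1.52, 1.49 to 1.55). Actb stood at 6385 and 4589 CPM, a ratio of 1.39 that lay under the rule of size. The 40 genes held 3.85% of UMIs in Fn1-high and 2.90% in Fn1-low cells, and 1.36% and 1.22% without Actb and Tmsb4x. Median depth was 21315 and 18299 UMIs, and 25 and 36 cells had at least 1% Malat1; the part of depth and Malat1 in these differences was not tested. The same division by Itgb1 gave Flna (76.8 and 40.4 CPM, 1.90, 1.38 to 2.64) and Tmsb10 (908 and 574 CPM, 1.58, 1.45 to 1.73) higher and none lower, beside 3.13% and 0.522%. The 40 genes then held 3.83% and 3.02% of UMIs, and 1.40% and 1.19% without Actb and Tmsb4x.

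Pairs of members were compared across the deep injured cells. For the 24 members with at least 1 UMI per cell after thinning, the 276 pairs had a median rho of 0.13, against 0.02 over 165600 pairs of the 576 genes past the same minimum, and 26 pairs (9.42%) reached 0.3, against 3.13%. The 576 genes were not matched to the members on UMIs, of which Tmsb4x had 10108 and Actb 3731 after thinning, so nothing particular to the members follows from this. The highest pair was Actb with Tmsb4x at 0.65, followed by Actb with Pfn1 and Actg1 with Pfn1, both at 0.42. The lowest was Tmsb4x with Iqgap1 at -0.09. Outside the list the genes most like the summed members over these 144 cells were Gapdh (0.50), Ppia (0.49), Gng5 (0.48), Nme1 (0.47) and Serf2 (0.42).

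Other genes of the pathway were taken from a list. Of 58 further actin network genes listed, 35 were compared, and 5 were higher and 9 lower in the injured library, with a median log2 ratio of -0.05, beside the 32.8% higher and 21.8% lower of all compared genes. The highest were the crosslinker Actn4 (4.71, 0.835 to 187, from 1 uninjured UMI), the coronin Coro1b (3.19, 0.876 to 26.5, from 2) and Sh3bgrl3, which stood at 585 and 251 CPM (2.33, 1.53 to 3.72). Marcks, a membrane protein that binds actin, stood at 343 and 891 CPM, 2.60-fold lower (2.04 to 3.27). The bundler Fscn1 was 2.73-fold lower (1.38 to 4.88) and Gmfb, which acts on branches, 2.91-fold lower (1.04 to 6.60).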

How the data were processed

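Cells of dissected, digested and triturated optic nerve were captured with the 10x 3′ v2 chemistry, per the labels' protocols. The submitters' processing notes name Cell Ranger 1.3, Seurat 4.0.3 and bcl2fastq 2.17.1.14, and genome build mm10. The authors deposited raw UMI counts for every gene in each cell, not normalized, for 778 cells with 226 to 6089 genes each, and a line with the condition of each cell. The sources used here do not give how cells were selected as phagocytes.

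UMIs were summed over cells as CPM, counts scaled to a common total per library or class, with Python 3.11.15, numpy 2.4.6, scipy 1.17.1, pandas 2.3.3 and matplotlib 3.10.9. The comparisons cover 4021 genes with a UMI in no fewer than 10% of the injured or of the uninjured cells, after 26 rows with names turned into dates were left out. A pseudocount of 10 CPM was added for log2 ratios and pulls the ratios of scarce genes toward 0. Bounds written as "at least" for a gene with 0 UMIs use 3 counts over the library or class, 34.3 CPM in the whole uninjured and 0.811 CPM in the whole injured library, while log2 ratios and calls use 0 plus the pseudocount. Injured UMIs outnumbered uninjured UMIs 42.3 to 1, so uninjured counts set the precision. Doublets were not removed, and over 15000 UMIs were found in 99 injured and 0 uninjured cells. The code for ratios and intervals was tested on simulated Poisson counts. These hold no spread between cells or animals, so they test the code and not that spread. Positions and spans are from GENCODE vM21 (mm10). The members and gene lists were chosen with earlier results of these data known. Full values are given for the 3 members of each role with most UMIs and those with the highest and lowest ratio. They are also given for the 5 highest and 3 lowest rho and for the 3 highest and 3 lowest of the further actin network genes. In the further comparisons only some of the 5 members with the largest change are given, beside other members. No fixed rule chose those shown there. One marker and one gene list are not reported here. Further members are given so that all 40 are accounted for. Alternatives changed the weight of cells, the pseudocount, the cells used, the totals, the class limits, the fold and the minimum share of cells.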

Additional observations from a re-analysis of the deposited data

How the results depend on the processing

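Of 95 alternatives for counts and medians 77 gave a like value, 18 moved and 0 reversed, and of 351 for single genes 329 gave a like value, 22 moved and 0 reversed. Between all cells of the libraries, 17 members were higher and 2 lower. Higher members numbered 11 with mitochondrial, ribosomal and haemoglobin genes out of the totals and 8 at 2-fold. Lower members numbered 5 with those genes out, 4 with equal weight per cell, 4 without the haemoglobin-rich cell, 4 after centring, 8 with cells thinned to 500 UMIs, 5 in cells under 5000 UMIs, 1 with a pseudocount of 50 CPM and 0 at 2-fold. The median log2 ratio of the members stayed between 0.24 and 0.58. In deep cells the 23 higher and 3 lower became 39 and 0 at a limit of 10000 UMIs, which leaves the haemoglobin-rich cell as the only deep uninjured cell, and 12 were higher without that cell, an alternative chosen after seeing the data. Haemoglobin genes took 91.8% of the UMIs of that cell, so the split of 39 and 0 is not read as a result about the members. The 14 higher in Malat1-rich cells became 9 at that limit, and the 2 lower in Malat1-poor cells became 5 at 3000 UMIs. Comparing the highest with the lowest tercile of cells gave 3 lower members for Fn1 instead of 0 and 5 higher for Itgb1 instead of 2, and equal weight per cell gave 1. Most of these counts stand here without the share over all compared genes, so they are not read as results about the members. The median rho ranged from -0.14 to 0.07 with Fn1 and from 0.03 to 0.11 with Itgb1. The causes were not tested, other than the loss of cells at the limit of 10000 UMIs. With 51 uninjured cells, genes with 1 to 3 uninjured UMIs have wide intervals. No paired analysis was possible because each group is 1 library and the labels give no shared replicate numbers.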
